A study of Mus musculus with 15 samples.

Results

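Mouse embryonic stem (ES) cells that kept a pair of kinase inhibitors for 24 h were compared with cells from which every supporting factor had been withdrawn for 24 h. The comparison takes the arrays titled 2i and DMSO, which are 6 of the 15 Affymetrix arrays of the series, 3 in each group, and covers all 19937 genes that are named by a probe set with exactly 1 gene symbol, out of 34760 probe sets. The 2i group received CHIR99021 at 3 µM and PD0325901 at 1 µM. The DMSO group received neither. LIF, a cytokine that activates STAT3, was absent from both groups over the 24 h. Other arrays of the series hold CHIR99021 alone (CHIR), PD0325901 alone (PD03) or both inhibitors with LIF (2iLIF), with n = 3 each. All cells came from 1 line, adapted beforehand to 2i medium, with a Biotin-3xFLAG tag on the beta-catenin gene Ctnnb1 and with the biotin ligase BirA. The tagged allele and BirA are therefore in both groups, and no second line shows how far the values hold in other ES cells. Nothing in the labels says that replicates were grown separately. A p-value or SE here reflects the spread between arrays within groups, pooled over all 5 groups of the series. That spread may be technical alone.

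CHIR99021 inhibits GSK3, a kinase that marks beta-catenin for destruction and so holds Wnt target genes down. PD0325901 blocks MEK and so the activation of ERK, which in ES cells is driven mainly by autocrine FGF4 and promotes exit from the naive state. The combination, known as 2i, keeps mouse ES cells close to the preimplantation epiblast, and its removal starts a passage towards a formative, postimplantation-like state.

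Values are log2 signals from the RMA procedure, on which a difference of 1 is a doubling, and a gene passed at a Benjamini-Hochberg adjusted p under 0.05 in limma. At that threshold 25.5% of all genes passed, 13.6% higher and 11.9% lower in 2i. Counts of list members below are to be read against these shares. The gene lists were chosen with earlier results of these data known, so such counts describe their members and are no test. Most differences were small. The median absolute difference of the genes that passed was 0.251, or 1.19-fold, and 4465 of them stayed under 1.5-fold. A difference of at least 2-fold was reached by 0.903% of all genes, 100 higher and 80 lower, and at least 4-fold by 10 higher and 6 lower. The 3 arrays of one group did not overlap with the 3 of the other for 36% of all genes. Correlations over all genes were 0.9989 to 0.9990 between 2i arrays, 0.9985 to 0.9987 between DMSO arrays and 0.9922 to 0.9940 across the groups. All 8 ES cell markers were well measured in both groups, with means from 9.82 to 13.1. In bulk RNA, fewer cells of a type and less RNA per cell cannot be told apart.

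**Figure D1:**
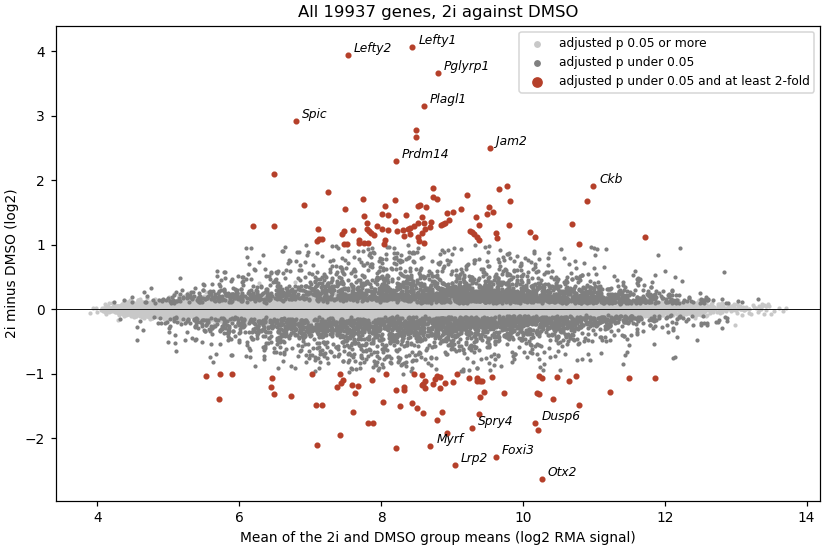
Each point is 1 of the 19937 genes, with the mean of the 2i and DMSO group means on the x axis (log2 RMA signal) and 2i minus DMSO on the y axis (log2). Light grey points did not pass, dark grey points passed, and red points passed with at least 2-fold, from Lefty1 at 4.06 to Otx2 at -2.63.

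Many genes that damp the ERK pathway were lower with both inhibitors, and ERK activity itself was not measured. The list of 17 held phosphatases, Sprouty and Spred proteins, and also Rasa1 and Nf1. Of these 17, 11 fell, 1 rose and 5 did not pass, with a median of -0.296, against a median of 0.016 over all genes. Spry4, a Sprouty-family inhibitor of receptor tyrosine kinase signalling, read 8.16, 8.31 and 8.61 on the 2i arrays and 10.17, 10.16 and 10.27 on the DMSO arrays. Every 2i array lay below every DMSO array, and the 2i arrays spread more widely. The difference was -1.84 ± 0.09 (SE), or 3.58-fold (limma adjusted p = 4.74e-10). Dusp6, which removes the activating phosphates from ERK, read 9.23, 9.33 and 9.32 in 2i and 11.11, 11.03 and 11.04 in DMSO, a difference of -1.77 ± 0.06. The groups were far apart relative to the spread within each. Dusp5, a nuclear ERK phosphatase, was at -0.51 ± 0.04, and Spred1, an inhibitor of Ras signalling, at -0.46 ± 0.05. Dusp1, Dusp2 and Dusp7 did not pass, at -0.13, 0.08 and -0.07.

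Among 25 transcription factors that respond to ERK, 12 fell, 3 rose and 10 did not pass. Etv4, an ETS factor of the PEA3 group, read 7.69, 7.72 and 7.97 in 2i and 9.30, 9.42 and 9.49 in DMSO (-1.61 ± 0.08, limma adjusted p = 3.61e-10). The 2i arrays were all lower, by more than 1 unit. The PEA3 group did not move as 1: Etv1 was at -0.89 ± 0.04, while Etv5 read 11.98, 11.96 and 11.98 in 2i and 11.83, 11.75 and 11.76 in DMSO, a rise of 0.20 ± 0.03. Myc, the growth-promoting transcription factor, was at 8.71 ± 0.21 in 2i and 9.78 ± 0.26 in DMSO (SD, n = 3 each), and Srf, the factor that drives serum-induced genes, at 8.85 ± 0.01 in 2i and 9.48 ± 0.04 in DMSO. The immediate-early gene Fos did not pass (-0.03 ± 0.09), with means of 6.24 in 2i and 6.27 in DMSO that lay low on the scale of the arrays. Egr1, another immediate-early gene, fell by 0.41 ± 0.09. Of 16 FGF ligands and receptors 5 fell and none rose, among them Fgfr1 at -0.42, Fgfr2 at -0.46 and Fgf4 at -0.23. The share that passed was 31.2%, all of it lower. Of all genes, 11.9% passed as lower and 25.5% in either direction. Of the 12 genes of the Myc and Max network, 6 fell and none rose, including Mycn at -0.40 ± 0.06.

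Wnt target genes moved in both directions. Of 23 measured feedback and target genes of beta-catenin 10 rose, 3 fell and 10 did not pass, with a median of 0.147. Axin2, a scaffold of the beta-catenin destruction complex and a feedback target, read 9.18, 9.24 and 9.14 in 2i and 8.10, 7.83 and 7.65 in DMSO (1.33 ± 0.08, limma adjusted p = 3.26e-09). No DMSO array came within 1 unit of a 2i array. Tnfrsf19, a receptor of the TNF receptor family, stood at 8.72, 8.61 and 8.55 in 2i against 7.42, 7.40 and 7.34 in DMSO. Notum, an enzyme that inactivates Wnt ligands, was at 0.89 ± 0.06.

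Sfrp1, a secreted Wnt antagonist, had the largest rise of the list. It read 11.76, 11.73 and 11.71 in 2i and 10.21, 9.99 and 9.99 in DMSO (1.68 ± 0.05). Its level was at 11.89 with PD0325901 alone and at 10.88 with CHIR99021 alone, so the arrays with PD0325901 carried the highest levels. Lef1, a DNA-binding partner of beta-catenin that is also a gene of the formative epiblast, went the other way: 8.54, 8.61 and 8.56 in 2i against 10.06, 10.28 and 10.24 in DMSO (-1.62 ± 0.05, limma adjusted p = 6.47e-12). Of 19 TCF factors, co-factors and destruction complex genes 2 rose and 4 fell, led by the corepressor Tle4 at -0.49 ± 0.05. The share that passed, 31.6%, was near the 25.5% of all genes. The mRNA of Ctnnb1 itself was at 11.91 ± 0.03 in 2i and 12.00 ± 0.01 in DMSO and did not pass (limma adjusted p = 0.0591). The settings under which it did pass are given with the other alternatives.

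**Figure D2:**
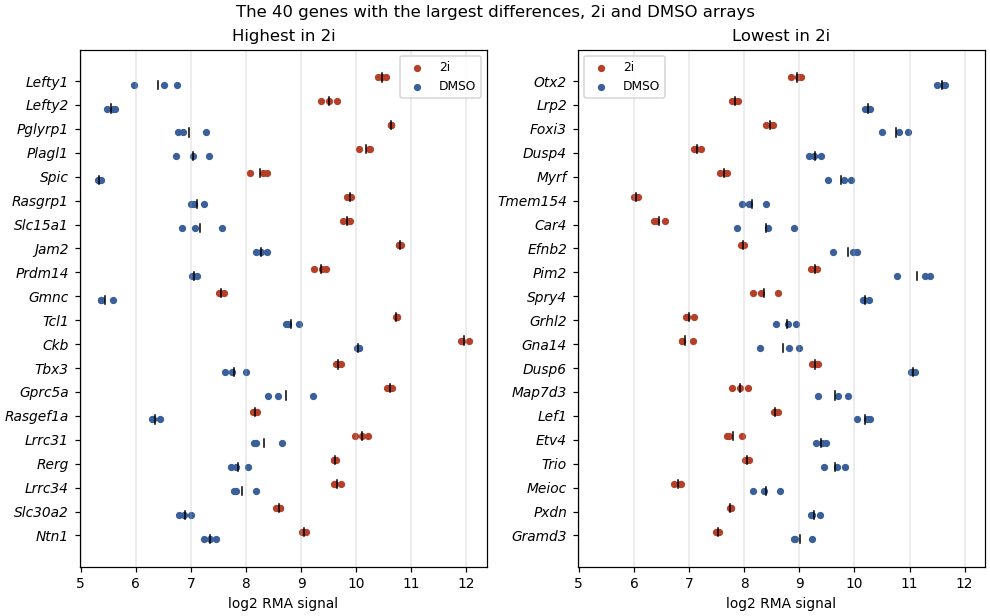
Points are single arrays (log2 RMA signal on the x axis), 2i in red above DMSO in blue, and black ticks are group means, for the 20 genes with the largest rises (left) and the 20 with the largest falls (right). By the naming rule the groups do not overlap for any gene shown, and single groups such as Car4 and Gprc5a in DMSO are spread widely.

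Genes of the naive state were higher. All 17 measured genes of the naive pluripotency list passed, 15 of them higher, with a median of 0.721. Because the list was chosen with earlier results of these data known, the count only describes its members. Prdm14, a repressor of de novo DNA methylation and of FGF signalling, read 9.24, 9.39 and 9.45 in 2i and 7.04, 7.11 and 7.02 in DMSO (2.30 ± 0.05, or 4.93-fold, limma adjusted p = 4.72e-14). The gap between the groups exceeded 2 units on every pair of arrays. Tcl1, a co-activator of AKT, stood at 10.73, 10.72 and 10.74 in 2i against 8.97, 8.77 and 8.72 in DMSO. Tbx3, a T-box factor of self-renewal, was at 9.64, 9.72 and 9.67 in 2i against 8.01, 7.63 and 7.74 in DMSO. Tfcp2l1, a naive transcription factor, rose by 1.33 ± 0.05, and Nanog by 0.95 ± 0.04. The exceptions were Gbx2 (-0.70) and Fgf4 (-0.23), which fell.

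The shared core of pluripotency showed no such rise. Of 13 core and general pluripotency genes 9 fell and none rose. Pou5f1 (Oct4) read 12.51, 12.47 and 12.53 in 2i and 12.52, 12.54 and 12.56 in DMSO, and these arrays overlap. Sox2 and Sall4 did not pass either, at 0.10 ± 0.04 and -0.07 ± 0.05. Members that fell were Lin28b, a blocker of let-7 maturation, at -0.64, the forkhead factor Foxp1 at -0.54 and the chromatin protein Dppa4 at -0.52.

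Genes of the formative and primed epiblast were lower in 18 of 22 cases, with none higher and a median of -0.768. Otx2, a homeobox factor needed for exit from the naive state, read 8.84, 9.04 and 8.97 in 2i and 11.51, 11.60 and 11.64 in DMSO. The lowest DMSO array exceeded the highest 2i array by more than 2 units. Pim2, a serine/threonine kinase, stood at 9.29, 9.21 and 9.33 in 2i against 10.77, 11.28 and 11.38 in DMSO (-1.86 ± 0.13). Grhl2, a factor of epithelial gene expression, stood at 6.95, 6.97 and 7.09 in 2i against 8.57, 8.79 and 8.95 in DMSO (-1.77 ± 0.09). Here the 2i arrays lay close together while the DMSO arrays were more spread. Fgf5 followed at -1.43 ± 0.14, Sox4 at -1.09, Foxd3 at -0.82 and Pou3f1 (Oct6) at -0.75. Sox3, Cdh2, Wnt8a and Epha2 did not pass.

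Nodal pathway genes were higher at several steps. Nodal is a TGF-beta family ligand that signals through activin receptors and SMAD2/3. Of 20 ligands, antagonists and signalling genes 8 rose and 4 fell. Nodal read 10.35, 10.25 and 10.36 in 2i and 8.74, 8.76 and 8.69 in DMSO (1.59 ± 0.04, limma adjusted p = 3.53e-13). Pcsk6, a convertase that cleaves the Nodal precursor, read 10.47, 10.45 and 10.46 in 2i and 9.20, 9.12 and 9.14 in DMSO (1.31 ± 0.04). Both genes were tight within the groups and well apart between them. The antagonist Lefty1 read 10.40, 10.48 and 10.54 in 2i against 5.97, 6.74 and 6.51 in DMSO, so that the DMSO arrays were the more variable ones. Pmepa1 and Smad7, feedback inhibitors of TGF-beta signalling, rose by 0.88 ± 0.06 and 0.52 ± 0.05. The signal transducer Smad3 and its co-factor Foxh1 were at -0.23 and -0.16, and both passed as lower, as did the repressor Skil at -0.39. The co-receptor Tdgf1 (0.09) and Smad2 (-0.01) did not pass.

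Of 17 BMP signalling and Id genes, 4 rose and 1 fell, or 29.4%, near the 25.5% of all genes. Bmp7 was at 8.60 ± 0.09 in 2i and 7.62 ± 0.12 in DMSO (SD, n = 3 each), and Bmp4, another ligand, rose by 0.46. The Id genes, inhibitors of helix-loop-helix factors, did not move together: Id4 rose by 0.69 ± 0.08, Id2 fell by 0.65 ± 0.10, and Id1 and Id3 did not pass. Of 14 genes of LIF reception and STAT3 feedback, 3 rose and 1 fell, or 28.6%, also near the share of all genes. Il6st, the shared receptor subunit gp130, read 10.58, 10.68 and 10.62 in 2i and 9.96, 9.78 and 9.78 in DMSO (0.79 ± 0.05). The STAT3 feedback gene Socs3 was at -0.41 ± 0.08 (limma adjusted p = 0.000659), but its other probe set gave 0.03, and the call was lost when the probe sets were averaged (-0.193, adjusted p = 0.0644).

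Several of the largest rises were in genes outside the lists. Rasgrp1, an exchange factor that loads Ras with GTP, read 9.84, 9.91 and 9.89 in 2i and 7.25, 7.01 and 7.06 in DMSO (2.78 ± 0.06, or 6.85-fold, limma adjusted p = 4.72e-14). Rasgef1a, another exchange factor, read 8.18, 8.20 and 8.12 in 2i and 6.30, 6.43 and 6.32 in DMSO (1.82 ± 0.04). Rerg, a small GTPase of the Ras superfamily, read 9.61, 9.64 and 9.59 in 2i and 8.04, 7.73 and 7.82 in DMSO (1.75 ± 0.07). In all of them the 2i arrays lay close together and above all DMSO arrays. The largest differences were named only where the arrays of the groups did not overlap. Jam2, a junctional adhesion molecule, was at 10.79 ± 0.02 in 2i and 8.28 ± 0.10 in DMSO (SD, n = 3 each). Slc15a1, a peptide transporter, rose by 2.68 ± 0.13, Ckb, the brain-type creatine kinase, by 1.91 ± 0.04, and Ntn1, the guidance protein netrin-1, by 1.70 ± 0.05. Among the largest falls outside the lists were Tmem154 (-2.11 ± 0.08), whose other probe set gave -0.90, and Gna14, a G protein alpha subunit, at -1.77 ± 0.13. Car4, a carbonic anhydrase, was at 6.45 ± 0.10 in 2i and 8.40 ± 0.51 in DMSO (SD, n = 3 each).

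**Figure D3:**
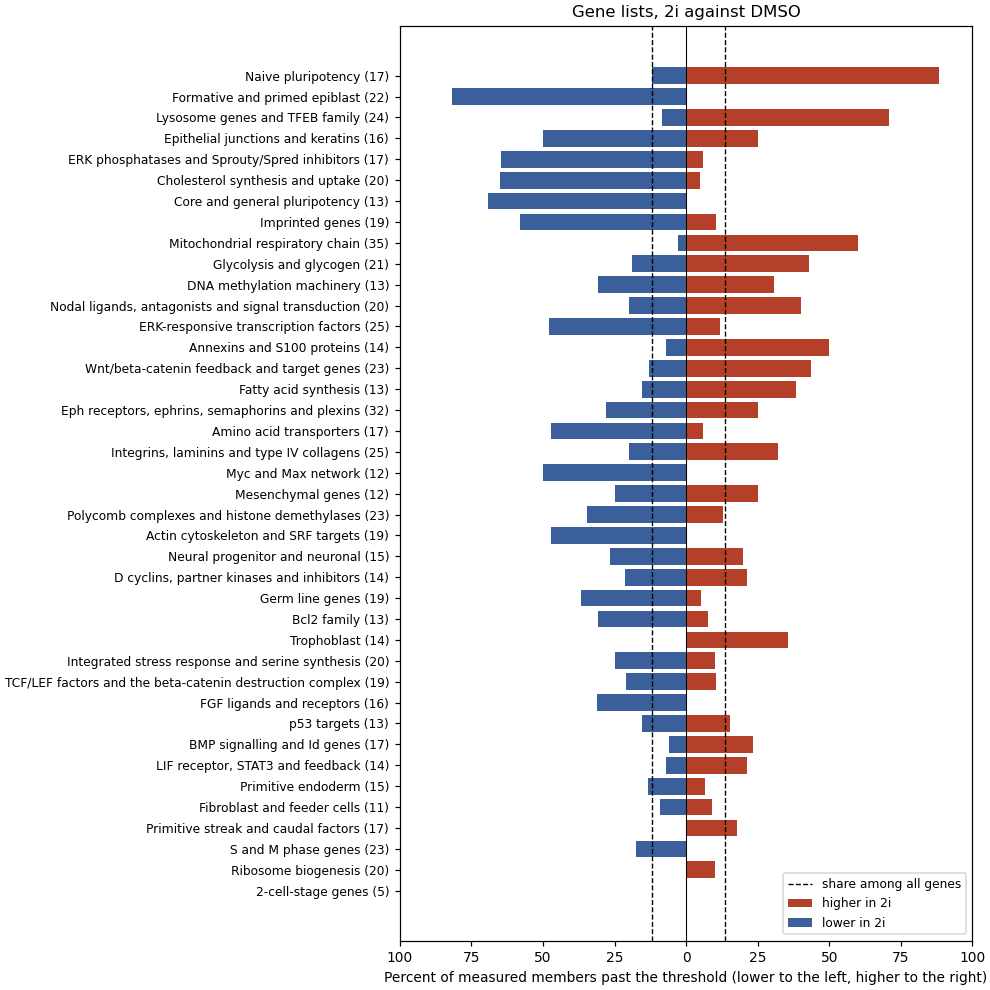
For each gene list, with its number of measured members in brackets, bars give the percent of members that passed as lower in 2i (blue, to the left) and as higher (red, to the right), and dashed lines give the shares among all genes, 11.9% and 13.6%. Lists are ordered by the total share that passed, from naive pluripotency at the top to 2-cell-stage genes, of which none of 5 passed, at the bottom.

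Genes of lysosomes were broadly higher in 2i. The lysosome is the acidic compartment in which proteins, lipids and sugars are broken down, and the transcription factors TFEB, TFE3 and MITF are known to drive many of its genes through an E-box. Of 24 measured lysosome genes and TFEB-family factors 17 rose, 2 fell and 5 did not pass, with a median of 0.186. Ctsc, the protease cathepsin C, read 9.94, 9.99 and 9.79 in 2i and 8.49, 8.23 and 8.32 in DMSO (1.56 ± 0.07, or 2.96-fold, limma adjusted p = 2.46e-10). Hexa, a subunit of the hexosaminidase that degrades gangliosides, read 9.20, 9.20 and 9.09 in 2i and 8.71, 8.46 and 8.54 in DMSO. Ctsb, the protease cathepsin B, read 11.11, 11.11 and 11.08 in 2i and 10.66, 10.51 and 10.54 in DMSO. For each of these enzymes every 2i array was above every DMSO array. Other rises were smaller: Lamp2, a membrane protein of the lysosome, 0.49 ± 0.06, Npc1, which exports cholesterol from it, 0.34 ± 0.04, Ctsa 0.32 ± 0.04, Gaa, which degrades glycogen, 0.25 ± 0.05, Lamp1 0.23 ± 0.03 and Gla, a galactosidase that acts on glycolipids, 0.20 ± 0.05.

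The transcription factors of the family differed from each other. Mitf rose by 1.36 ± 0.05, with 9.36, 9.41 and 9.39 in 2i and 8.05, 8.03 and 8.01 in DMSO; a second Mitf probe set lay near background, at 4.70 in 2i and 4.66 in DMSO, and gave 0.04. Tfe3 fell by 0.47 ± 0.05, Tfeb rose by 0.18 ± 0.05, and Tfec, at means of 5.40 in 2i and 5.38 in DMSO, did not pass.

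Promoter windows of 4 lysosome genes that rose are printed to show the E-box where it occurs. The windows are RefSeq sequences on GRCm38.p6 that run from 250 bases before to 50 bases after the transcript start, 5′ to 3′ on the gene's strand. Matches to TCACGTG, or to its reverse complement CACGTGA, are in capitals. Where these forms overlap, only the first is in capitals and counted. The genes are Lamp1 (chr8:13158911-13159210, plus strand), Ctsa (chr2:164833523-164833822, plus strand, 1 of its 2 windows), Gla (chrX:134600956-134601255, minus strand) and Gaa (chr11:119267713-119268012, plus strand).
Lamp1: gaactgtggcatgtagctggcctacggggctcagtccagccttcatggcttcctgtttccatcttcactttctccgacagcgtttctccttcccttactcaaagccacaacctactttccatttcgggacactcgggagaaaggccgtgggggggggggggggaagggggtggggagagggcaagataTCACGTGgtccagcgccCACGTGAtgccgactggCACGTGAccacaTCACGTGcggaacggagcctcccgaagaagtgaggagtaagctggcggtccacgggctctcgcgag
Ctsa: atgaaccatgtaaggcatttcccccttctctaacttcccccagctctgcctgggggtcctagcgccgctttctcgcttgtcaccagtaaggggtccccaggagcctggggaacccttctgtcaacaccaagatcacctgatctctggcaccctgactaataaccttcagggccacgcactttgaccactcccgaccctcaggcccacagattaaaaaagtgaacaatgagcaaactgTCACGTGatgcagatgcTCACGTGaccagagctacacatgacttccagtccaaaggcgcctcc
Gla: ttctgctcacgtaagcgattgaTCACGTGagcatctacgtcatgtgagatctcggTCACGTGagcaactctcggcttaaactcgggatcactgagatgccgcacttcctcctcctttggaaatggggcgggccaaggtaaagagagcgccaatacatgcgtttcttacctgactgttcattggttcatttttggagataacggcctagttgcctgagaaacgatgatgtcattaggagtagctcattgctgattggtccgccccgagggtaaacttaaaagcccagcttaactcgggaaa
Gaa: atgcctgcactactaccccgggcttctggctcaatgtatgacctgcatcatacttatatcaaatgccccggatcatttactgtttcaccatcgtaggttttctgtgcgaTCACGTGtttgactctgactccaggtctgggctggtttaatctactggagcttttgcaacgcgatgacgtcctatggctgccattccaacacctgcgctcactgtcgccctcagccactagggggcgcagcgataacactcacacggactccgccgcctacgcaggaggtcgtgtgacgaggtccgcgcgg
The Lamp1 window holds 4 matches and the printed Ctsa window and the Gla window 2 each, while Gaa has 1. The other Ctsa window holds 0. Of the tested genes, 15562 of 19937 had a window, and 5.36% of them held a match, as did 3.77% of all 32851 windows. Among genes higher in 2i the share was 9.01%, and among genes lower in 2i 6.09%. With at least 2-fold it was 7.04% of higher and 7.14% of lower genes. Other lists searched, each with 13 to 19 genes with a window, ranged widely. Shares were 18.8% for cholesterol synthesis, 15.8% for ERK-responsive factors, 15.4% for ERK phosphatases and Sprouty or Spred genes, 14.3% for Wnt targets and 0% for actin and SRF targets. In the lysosome list 7 of 21 genes with a window held one. Of those 7, Ctsa, Ctsd, Gaa, Gla and Lamp1 rose, and Atp6v0d1 and Mcoln1 did not pass (0.06 and 0.09). In the whole lysosome list 17 of 24 rose. Whether members with a match rose more often was not tested. No match lay in the windows of Ctsc, Hexa, Lamp2 or Mitf. A match describes letters in a window and does not show a bound site.

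Mitochondrial respiratory chain genes were higher by small amounts. Of 35 subunits of the chain and of ATP synthase 21 rose, 1 fell and 13 did not pass, with a median of 0.138. Sdhd, a membrane anchor of succinate dehydrogenase, read 11.58, 11.65 and 11.61 in 2i and 11.21, 11.30 and 11.27 in DMSO (0.35 ± 0.05, limma adjusted p = 3.39e-05). Atp5o and Atp5c1, subunits of ATP synthase, were at 0.32 ± 0.04 and 0.26 ± 0.04, and Cox5a, a subunit of cytochrome c oxidase, at 0.25 ± 0.04. The exception was Ndufa2, a subunit of complex I, at -0.14 ± 0.05, whose arrays overlapped. The largest of these changes, that of Sdhd, was 1.27-fold.

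Of 21 genes of glycolysis and glycogen 9 rose and 4 fell. Slc2a3, a glucose transporter, read 13.13, 13.15 and 13.10 in 2i and 12.66, 12.50 and 12.47 in DMSO, and Pfkfb3, which makes an activator of phosphofructokinase, rose by 0.69 ± 0.06. Pfkm, Pdk1, Eno3 and Slc2a1 fell. Cholesterol synthesis genes fell in 13 of 20 cases, with a median of -0.188, and 1 rose. The member that rose was Ebp, a sterol isomerase of the pathway, with 10.66, 10.66 and 10.78 in 2i and 9.47, 9.49 and 9.55 in DMSO (1.20 ± 0.05, limma adjusted p = 4.63e-11). Its mean was 10.62 with CHIR99021 alone and 9.80 with PD0325901 alone. In fatty acid metabolism Acsl4, which activates polyunsaturated fatty acids, fell by 1.11 ± 0.05, and Me1, malic enzyme, rose by 0.54 ± 0.07. Of 17 amino acid transporters 8 fell and 1, Slc7a1, rose. Slc1a3, a glutamate transporter, had the largest difference of them, -1.21 ± 0.04. Of 20 ribosome biogenesis genes 2 rose and none fell.

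**Figure D4:**
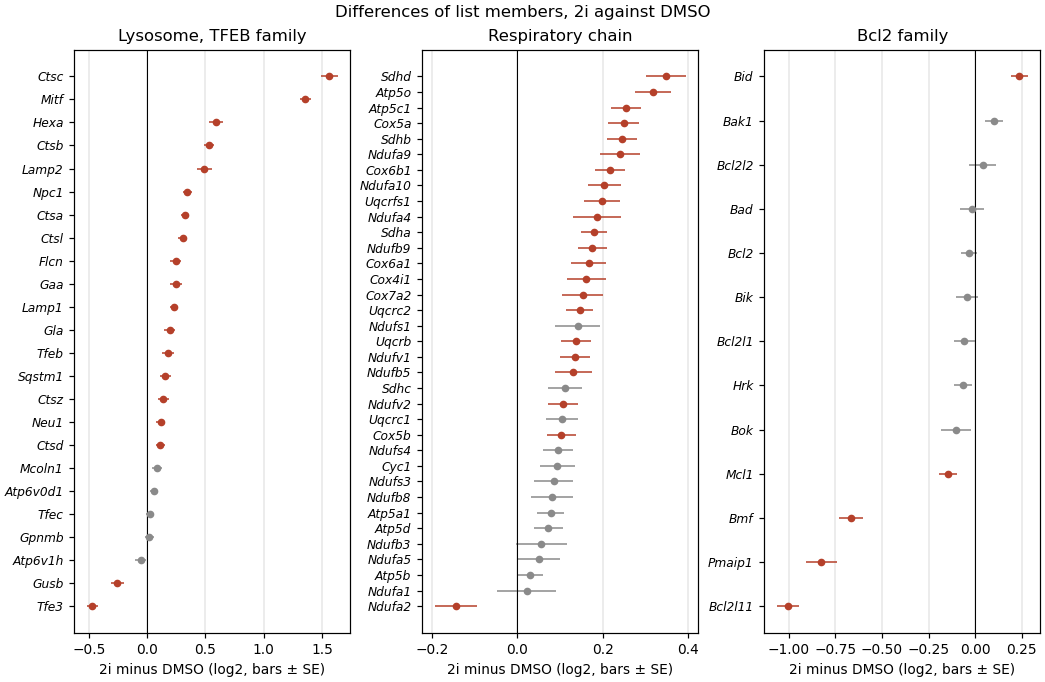
Points are 2i minus DMSO (log2) with bars of ± 1 SE for members of 3 lists, red where the gene passed and grey where it did not. Lysosome genes spread from -0.47 (Tfe3) to 1.56 (Ctsc), respiratory chain genes from -0.14 (Ndufa2) to 0.35 (Sdhd), and Bcl2 family genes from -1.005 (Bcl2l11) to 0.24 (Bid).

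Within the Bcl2 family, which sets the threshold for apoptosis, 4 of 13 genes fell and 1 rose. The pro-apoptotic gene Bcl2l11 (Bim) read 7.98, 8.02 and 7.88 in 2i and 8.88, 8.94 and 9.07 in DMSO (-1.005 ± 0.06, or 2.01-fold, limma adjusted p = 3.24e-09). Pmaip1 (Noxa), also pro-apoptotic, read 9.17, 9.12 and 9.02 in 2i and 10.03, 9.90 and 9.88 in DMSO (-0.83 ± 0.08). Bmf, another pro-apoptotic member, was at 8.57 ± 0.01 in 2i and 9.24 ± 0.02 in DMSO (SD, n = 3 each). Each of these genes had all 2i arrays below all DMSO arrays. The anti-apoptotic genes Bcl2 and Bcl2l1 did not pass (-0.03 and -0.06), Mcl1 was at -0.15 ± 0.05, a call lost under 6 alternatives, and pro-apoptotic Bid rose by 0.24 ± 0.04. Of 13 p53 targets 2 rose and 2 fell, or 30.8%, near the 25.5% of all genes.

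Of 14 D cyclins, partner kinases and inhibitors 3 rose and 3 fell. Ccnd2, a D cyclin, was at 9.32 ± 0.26 in 2i and 8.90 ± 0.03 in DMSO (SD, n = 3 each), against 10.67 with CHIR99021 alone and 8.09 with PD0325901 alone. Ccnd1 did not pass (0.02 ± 0.06). Rb1, the retinoblastoma protein, fell by 0.47 ± 0.07. Of 23 S and M phase genes 4 fell and none rose, and 8 passed with a variance trend in the fit. In the main fit the share that passed was 17.4%, all of it lower. Of all genes, 11.9% passed as lower and 25.5% in either direction.

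Imprinted genes that passed were mostly lower. Of 19 imprinted genes 11 fell and 2 rose, with a median of -0.193. Peg3, a paternally expressed zinc finger gene, read 10.97, 10.97 and 10.95 in 2i and 12.08, 11.97 and 12.05 in DMSO (-1.07 ± 0.03, limma adjusted p = 4.37e-12). Its arrays lay close together within each group, and the 2i arrays were all about 1 unit lower. Peg10 and its neighbour Sgce fell by 1.05 ± 0.07 and 0.51 ± 0.08, and the maternally expressed RNA Meg3 by 0.78 ± 0.05. The zinc finger gene Plagl1 ran the other way, with 10.26, 10.23 and 10.06 in 2i and 7.33, 7.04 and 6.73 in DMSO. Polycomb and histone demethylase genes passed in 11 of 23 cases, 8 lower and 3 higher: Kdm2b, which recruits a Polycomb complex to CpG islands, was at -0.72 ± 0.05, the Polycomb accessory protein Phf19 at -0.69 ± 0.05, the H3K9 demethylase Kdm3a at 0.64 ± 0.04 and the core subunit Eed at 0.31 ± 0.04. Ezh2 and Suz12 did not pass (-0.04 and 0.00). Leaving out 2i replicate 3 or DMSO replicate 3 brought the Polycomb count to 7. Of 13 DNA methylation genes 4 rose and 4 fell, and the maintenance genes Dnmt1 and Uhrf1 did not pass (-0.03 and 0.01).

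Cell surface and adhesion genes moved in both directions. Of 16 epithelial junction and keratin genes 4 rose and 8 fell. Dsg2 and Dsp, components of desmosomes, rose by 1.21 ± 0.05 and 1.24 ± 0.09, and the keratin Krt8 by 0.50 ± 0.07, whereas its partner Krt18 fell by 0.77 ± 0.05. The splicing factor Esrp1, the adhesion molecule Epcam and the claudin Cldn7 fell by 0.94, 0.69 and 0.75, and E-cadherin (Cdh1) did not pass (-0.08 ± 0.03). Of 32 Eph, ephrin, semaphorin and plexin genes 8 rose and 9 fell, the largest differences being those of the ephrin Efnb2 (-1.91 ± 0.09), the semaphorin Sema6a (-1.19 ± 0.15) and the receptor Epha4 (0.96 ± 0.03). Integrin, laminin and type IV collagen genes gave 8 higher and 5 lower of 25, including the basement membrane genes Nid1 (0.87 ± 0.08) and Lama1 (0.65 ± 0.05) and the integrin Itga3 (-0.86 ± 0.04).

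Genes of annexins, which are calcium-dependent membrane-binding proteins, and of S100 proteins rose in 7 of 14 cases and fell in 1. Anxa2 read 9.24, 9.39 and 9.23 in 2i and 8.13, 7.55 and 7.91 in DMSO (1.43 ± 0.12), and its binding partner S100a10 rose by 0.84 ± 0.04. The 2 groups were separate for both genes. With PD0325901 alone Anxa2 stood at 9.91, above 2i. Of 19 genes of the actin cytoskeleton and its SRF targets 9 fell and none rose, with the calponin Cnn2 at -1.004 ± 0.08 and the tropomyosin Tpm2 at -0.64 ± 0.06, and Actb did not pass (-0.03 ± 0.03).

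Marker genes of other cell types were also measured. Under 6 on the log2 scale in both groups lay 5 of 11 fibroblast and feeder markers, 1 of 6 primitive endoderm markers, 3 of 6 trophoblast markers, 0 of 4 neural markers and both measured 2-cell-like markers. Of the fibroblast markers, 1 rose and 1 fell: Vim, a mesenchymal filament gene that ES cells also express, was at 12.46 ± 0.04 in 2i and 12.03 ± 0.03 in DMSO (SD, n = 3 each; 0.44 ± 0.03), and Dcn, a matrix proteoglycan, fell by 0.29. Dcn lay near background, under 6, and only Vim remained as a call with the low-value filter. The summed linear signal of the fibroblast markers was 6489 to 6720 in 2i and 5004 to 5195 in DMSO, most of it from Vim, and their part in the results was not tested. None of the 6 primitive endoderm markers passed. Of the longer list of 15 primitive endoderm genes 1 rose, the lipoprotein gene Apoe (0.23), and 2 fell, the endocytic receptor Lrp2 (-2.41 ± 0.05) and Fgfr2 (-0.46). Of 15 neural genes 3 rose and 4 fell. Ncam1, a cell adhesion molecule, rose by 1.29 ± 0.04, whereas the transcription factors Sox11 and Pax6 fell by 0.71 ± 0.06 and 0.69 ± 0.05. Of 14 trophoblast genes, 5 rose and none fell, with the AP-2 factor Tfap2c at 0.99 ± 0.08 and Tead4 at 0.89 ± 0.05, while the defining trophoblast factor Cdx2 did not pass, at means of 5.97 in 2i and 5.89 in DMSO. Eomes, a T-box factor that stands on the trophoblast and the primitive streak list, rose by 0.87 ± 0.10.

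**Figure D5:**
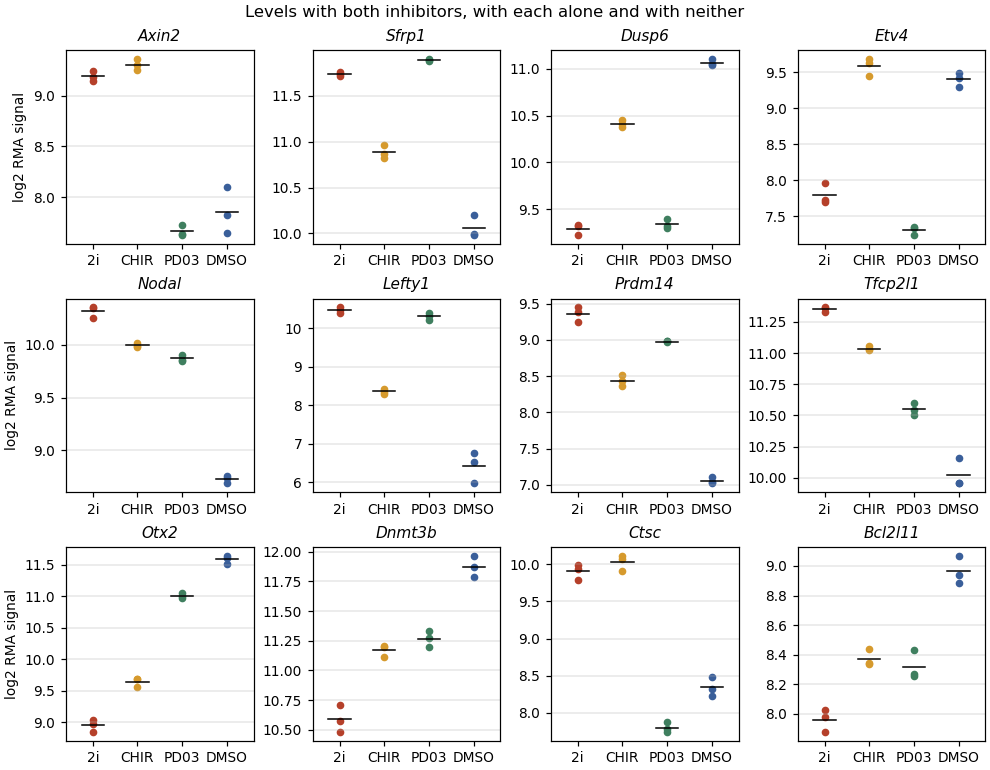
Points are single arrays and black lines group means (log2 RMA signal) for 12 genes in 2i, CHIR, PD03 and DMSO. Dusp6 and Etv4 are low in 2i and PD03, Axin2 and Ctsc are high in 2i and CHIR, and Bcl2l11 and Dnmt3b are lowest in 2i.

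The groups with 1 inhibitor show where both together stood beyond either alone. The comparisons of 2i with CHIR and with PD03 use the same 2i arrays as the comparison with DMSO, so the counts describe the 180 genes and give no independent test. Against CHIR 9.46% of all genes passed, 1137 of 1887 higher in 2i, a split that turned to 716 of 1648 when arrays were centred on their medians. Against PD03 19.5% passed, 2008 of 3891 higher, or 2307 of 3777 with centring. Of the 100 genes at least 2-fold higher in 2i than in DMSO, 53 also passed as higher than both CHIR and PD03, 28 as higher than PD03 but not CHIR, and 19 as higher than CHIR but not PD03. Of the 80 lower genes, 45 passed as lower than both, 17 than PD03 only and 13 than CHIR only, and 5 than neither. The 2i mean lay beyond both single-inhibitor means for 68 of the 100 higher genes and for 68 of the 80 lower genes.

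Prdm14 and Jam2 are examples with both comparisons passed. Prdm14 exceeded CHIR by 0.92 and PD03 by 0.39 (limma adjusted p = 1.18e-08 and 5.01e-05), and Jam2 exceeded them by 0.98 and 0.58. Rasgrp1 stood 1.66 above PD03 and 0.31 above CHIR. Other genes passed against 1 of the single inhibitors and not the other. Pglyrp1, a peptidoglycan recognition protein, was 3.00 above PD03 and did not pass against CHIR (0.10, limma adjusted p = 0.604). Lefty1 was 2.11 above CHIR and did not pass against PD03 (0.16, adjusted p = 0.468). Dusp4, an ERK phosphatase, was at -1.30 against CHIR and 0.03 against PD03.

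Some genes were less extreme with both inhibitors than with 1. Gmnc, a relative of geminin that drives multiciliated cell fate, read 7.51, 7.60 and 7.54 in 2i and 5.37, 5.59 and 5.36 in DMSO, and its CHIR mean was 9.19 (2i minus CHIR -1.64, limma adjusted p = 2.38e-09). Ntn1 and Rerg were likewise lower in 2i than in CHIR (-0.44 and -0.37). Of the 100 higher genes 10 passed as lower in 2i than in CHIR and 8 as lower than in PD03. The fall of Etv4 was smaller with both inhibitors than with PD0325901 alone, with means of 7.79 in 2i and 7.31 in PD03 (2i minus PD03 0.48, limma adjusted p = 0.000335).

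Promoter windows of the genes that moved at least 2-fold were searched for 8 motifs on both strands. Shares are of genes with a window, which were 71 of the genes at least 2-fold higher and 56 of those at least 2-fold lower. The KLF motif CCNCACCC was in 38% of these higher and 41.1% of these lower genes, against 24.1% and 26.2% of all genes that passed as higher and as lower, 21.3% of all tested genes with a window and 16.6% of all windows. The ETS motif CCGGAAGT was in 0 of 71 and 0 of 56, but in 8.05% of all genes that passed as higher and 5.28% of those that passed as lower, against 6.03% of all tested genes with a window and 3.89% of all windows. The TCF/LEF motif CTTTGAT was in 5.63% and 1.79% of the 2-fold genes, against 3.73% of all tested genes with a window, and was absent from the window of Axin2. These shares were not tested, and no match says only that the letters are not in this window.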

How the data were processed

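Total RNA was measured on 15 arrays, 3 in each of 5 groups, grouped by the labels. The authors deposited log2 values per probe set, made with RMA per the submitters' processing notes. RMA corrects background, normalizes quantiles across arrays and summarises probes. Its version and the build of the annotation are not given in the sources used here. This normalization hides a change shared by most genes and compresses folds of weak genes. Of 34760 probe sets, 21640 had exactly 1 symbol in the platform annotation, 1321 several and 11799 are unnamed here, and 0 value columns were left unused. For 954 genes with several sets, the set with the highest mean over 15 arrays was used. No low-value filter was applied, and values under 6 are called near background.

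In R 4.3.3, limma 3.58.1 (lmFit, eBayes) modelled the 5 groups over all arrays, with 10 residual and 5.09 prior degrees of freedom, and adjusted p-values (Benjamini-Hochberg, two-sided) cover all 19937 genes. The number of arrays limits the precision: the median SE of a difference was 0.0509. The fit was also run on simulated data with independent noise and 200 changed genes, far fewer than passed here. It recovered 43.5% of changes of 0.2, 98.5% of changes of 0.5 and 100% of changes of 1. False calls numbered 5, 11 and 8.

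Members and the 40 gene lists (693 of 740 entries measured) were chosen with earlier results of these data known. Named genes were the 20 highest and 20 lowest differences past the threshold with no overlap of arrays and no predicted symbol. From each list they were at most 5 members that passed, by size of the difference, and known members that did not pass. A short set was added whatever its result. Of that set, Lefty2 is marked only in the figure of all genes, and Gapdh was not measured. Genes named outside that rule were chosen after their values were seen. Alternatives were fits to the 2 groups only, a low-value filter, median centring, averaged probe sets, a variance trend, array weights, a replicate block, a 2-fold minimum and leaving out each array. Same-numbered 2i and DMSO arrays had correlations of deviations from the group means of 0.12, -0.35 and 0.10, so the numbers were not taken to pair the samples.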

Additional observations from a re-analysis of the deposited data

How the results depend on the processing

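The 2-fold minimum was applied only to the counts over all genes, not to named genes or lists. Of 204 named genes, 186 kept their direction and their side of the threshold under every other alternative, and none reversed. The call was lost under at least 1 of these alternatives for 16, among them Mcl1, Evx1, Plac1, Smad1, Perp, Trib3, Twist1, Ctnnbip1 and Socs3. Ctnnb1 passed with the low-value filter (adjusted p = 0.0421), with the variance trend and without 2i replicate 1, and Sox2 without DMSO replicate 1 (limma adjusted p = 0.0141). The count of 5088 genes in 2i minus DMSO lay between 4148 (the 2 groups alone) and 5299 (variance trend), between 4352 and 4676 when single arrays were left out, and at 4944 with the replicate block, 2605 of them higher. The replicate block changed the call of Mcl1 and of no other named gene.

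With a 2-fold minimum the counts were 180 for 2i minus DMSO (100 higher, 80 lower), 30 for 2i minus CHIR (10 higher) and 63 for 2i minus PD03 (44 higher); fewer genes pass by construction. Centring arrays on their medians gave 716 genes higher in 2i minus CHIR, against 1137; the cause was not tested. List counts, to which the 2-fold minimum was not applied, stayed within 1.5 times for 34 of 40 lists. The others were those of LIF reception (7 with the variance trend), Polycomb (7 without 2i replicate 3 or DMSO replicate 3), germ line (5 with the 2 groups alone or without 2i replicate 1), primitive endoderm (5 without DMSO replicate 2), fibroblast (1 with the filter) and S and M phase genes (8 with the variance trend).

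The number of arrays limits what can be seen: genes near background have compressed folds, and a p that misses the threshold does not show equal levels. With 1 line, 1 time point and RNA alone, protein levels, other lines and later times were not measured.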

Other observations

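Arrays of cells kept in both inhibitors with LIF were not part of the comparison. They are labelled as a long-term culture with LIF, whereas LIF was withdrawn from the 2i cells for 24 h. Their mean lay beyond the 2i mean, on the side away from DMSO, for 58 of the 100 genes at least 2-fold higher in 2i and for 69 of the 80 genes at least 2-fold lower. Tfcp2l1 had a mean of 12.08 in 2iLIF, 11.35 in 2i and 10.02 in DMSO, and Klf4, a Krüppel-like factor of the naive state, 9.91, 8.47 and 7.13. Lef1 stood at 6.99 in 2iLIF, 8.57 in 2i and 10.19 in DMSO, and Dnmt3b, a de novo DNA methyltransferase gene, at 9.51, 10.59 and 11.87. The adhesion gene Lama1 stood at 8.95 in 2iLIF, 7.76 in 2i and 7.10 in DMSO. Lefty1 differed, with 9.69 in 2iLIF, 10.47 in 2i and 6.41 in DMSO, and so did Gmnc, with 6.65, 7.55 and 5.44. These levels were not tested here.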
